A study of Mus musculus with 14 samples.

Results

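The proximal epididymis of mice lacking Arl13b in Krt5-positive basal cells (cKO) was compared with that of control mice (Ctl) on the side that had only a sham operation. The members were the 7 arrays titled as sham, 3 cKO (replicates 2, 3 and 4) and 4 Ctl (replicates 2, 3, 4 and 5), of 14 arrays in all. Every mouse was 8 weeks old at surgery and carried, on its opposite side, a ligation of the efferent ducts (EDL), so no array came from an unoperated animal. Tissue was collected 48 h after surgery, frozen, and 100 ng of total RNA per array was labelled for single-colour Clariom S mouse arrays. Both genotypes thus shared the surgery, the age and the ligated opposite side and differed in the knockout. The Cre line, its promoter and the strain are not given in the sources used here. Replicate numbers were taken to join the sham and EDL arrays of a mouse, which the labels do not state outright.

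Arl13b is a small GTPase anchored in the membrane of the primary cilium, where it activates the GTPase Arl3, holds the phosphoinositide phosphatase Inpp5e and is needed for normal hedgehog signalling. The epididymis is a coiled duct in which sperm mature, and its epithelium is made of tall secretory principal cells, proton-secreting clear cells and basal cells that sit on the basement membrane. In its first regions the principal cells secrete lipocalins, cystatins, beta-defensins and other small proteins that coat passing sperm, each with its own stretch of the duct, under the control of androgens and of factors arriving from the testis.

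The values were log2 intensities of 21929 genes, with array medians from 6.99 to 7.09. Genes of olfactory and vomeronasal receptors, which served as background, reached 5.31 at their 95th percentile. Where a group mean lay under that level, the fold is written as a minimum, set by that level. All 18 initial segment markers, all 17 caput secretion genes and 14 of 15 basal cell markers lay above background in at least 1 group. Of all 21929 genes 5811 lay at or below background in both groups. Lists of other cell types also lay above it, such as all 17 fibroblast and matrix genes, so these counts alone do not identify the tissue. The cKO sham replicate 2 stood at -24.53 and the Ctl sham replicate 3 at 21.74 on the first principal component of the 7 arrays (28.9% of the variance), and the cKO sham replicate 4 at 23.75 on the second (18.4%). Relative to the mean of the Ctl sham arrays, 113, 19 and 39 genes were more than 2-fold lower in the 3 cKO sham arrays, and 5, 5, 8 and 14 in the Ctl sham arrays themselves. More than 2-fold higher were 8, 15 and 3 genes in the cKO and 8, 26, 2 and 2 in the Ctl sham arrays. Each Ctl array is part of the mean it is set against, which holds the Ctl counts down, so the counts of the 2 genotypes are not on equal terms.

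No gene differed between cKO and Ctl sham tissue at a limma adjusted p under 0.05 (0% of 21929 genes tested). The smallest adjusted p was 0.999. At an unadjusted p under 0.05, 413 genes were higher (1.88%) and 387 lower (1.76%), and in the authors' deposited table of p-values 0 probe sets passed after Benjamini-Hochberg adjustment, with 415 higher and 355 lower unadjusted. Across all genes the median difference, cKO minus Ctl, was 0.00 log2, the 5th to 95th percentile ran from -0.22 to 0.20, and 49.5% of genes were lower. The 95% interval of a gene of median precision extended 0.24 log2 each way. The largest differences were nonetheless one-sided: 20 genes were at least 2-fold lower in cKO (0.0912% of those tested) and 0 were at least 2-fold higher (0%). For 15 of the 20 (0.0684% of all genes) every cKO sham array lay below every Ctl sham array.

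**Figure D1:**
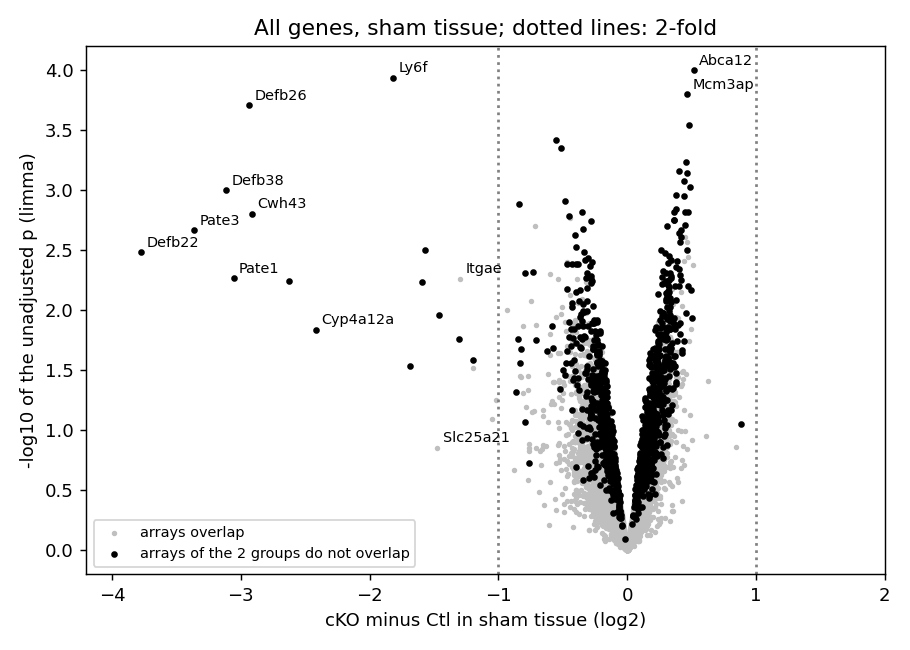
Difference between cKO and Ctl sham tissue (log2, horizontal) against the negative log10 of the unadjusted limma p for all 21929 genes, with the dotted lines at 2-fold; black points are genes whose 3 cKO and 4 Ctl sham arrays do not overlap. The points beyond 2-fold all lie on the lower side, led by Defb22 at -3.77, while the higher side ends below 2-fold.

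The targeted gene was examined first. Arl13b read 7.24, 7.20 and 7.15 in the cKO sham arrays and 7.0, 7.06, 6.87 and 7.46 in the Ctl sham arrays. The cKO values lay inside the Ctl range, and the 95% interval of the difference was -0.19 to 0.39. The sources used here do not say which exons the array's Arl13b probes cover or which the knockout removes, and basal cells are a minority of the tissue, so these values do not check the genotype labels. In bulk tissue, fewer cells of a type and less RNA per cell cannot be told apart.

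Genes that act with Arl13b in the cilium differed little. Of 16 ciliary GTPase partners 9 were higher and 7 lower, with 0 past the threshold and a median of 0.02. Inpp5e, the phosphatase that Arl13b holds in the cilium, read 8.37, 8.21 and 8.11 in cKO and 8.42, 8.40, 8.43 and 8.36 in Ctl sham tissue (-0.17 ± 0.08, unadjusted p = 0.0398), with cKO replicate 2 inside the Ctl range. Pde6d, the carrier that delivers Inpp5e, differed by -0.13 ± 0.09, and Ttll6, a tubulin polyglutamylase, by 0.21 ± 0.14. The 26 genes of intraflagellar transport and the BBSome, the machinery that moves cargo along the axoneme, ranged from -0.11 to 0.16 with a median of 0.00. Ift122, a subunit of the retrograde transport complex, stood at the upper end of that range (0.16 ± 0.08).

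Hedgehog pathway genes showed no common direction: 8 of 17 were higher and 9 lower (median -0.01, 0 past the threshold). Gli1, a transcriptional target and effector of the pathway, read 5.14, 5.47 and 5.69 in cKO and 4.90, 5.29, 5.49 and 5.32 in Ctl, with the Ctl mean below background and the groups overlapping. Ptch1, the receptor and also a target, differed by -0.02 ± 0.11, an interval of -0.25 to 0.21, and its sign turned under several alternatives. Hhip, the target that binds hedgehog ligands, was higher by 0.31 ± 0.21 and also overlapped. The 14 measured markers of motile ciliated cells of the efferent ducts had a median of -0.03.

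Genes of basal cells, in which the knockout was made, were mostly slightly lower: 11 of 15 were below Ctl and 4 above, with a median of -0.08 (-0.12 to -0.05 with an array left out) and 0 past the threshold (0% of all genes passed). Krt5, the basal cell keratin by which the labels define the knocked-out cells, read 9.72, 10.05 and 9.79 against 10.07, 10.16, 10.04 and 9.96, a difference of -0.20 ± 0.10. Krt14, its partner keratin, read 8.44, 9.08 and 8.62 against 8.95, 9.47, 9.08 and 8.58 (-0.31 ± 0.18). In both keratins the cKO replicate 3 lay within the Ctl range, and for Krt14 the cKO replicate 4 did too. Itgb4, an integrin chain of hemidesmosomes, differed by -0.22 ± 0.12. Trp63, the transcription factor of basal cells, read 10.72, 10.61 and 10.54 against 10.70, 10.33, 10.65 and 10.68, and its difference of 0.03 ± 0.11 changed sign when the cKO replicate 2 (-0.02) or the Ctl replicate 3 (-0.06) was left out. By array, the basal list lay at -0.12, 0.03 and -0.13 in cKO and -0.01, 0.05, -0.01 and -0.05 in Ctl relative to the Ctl mean, which overlaps.

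**Figure D2:**
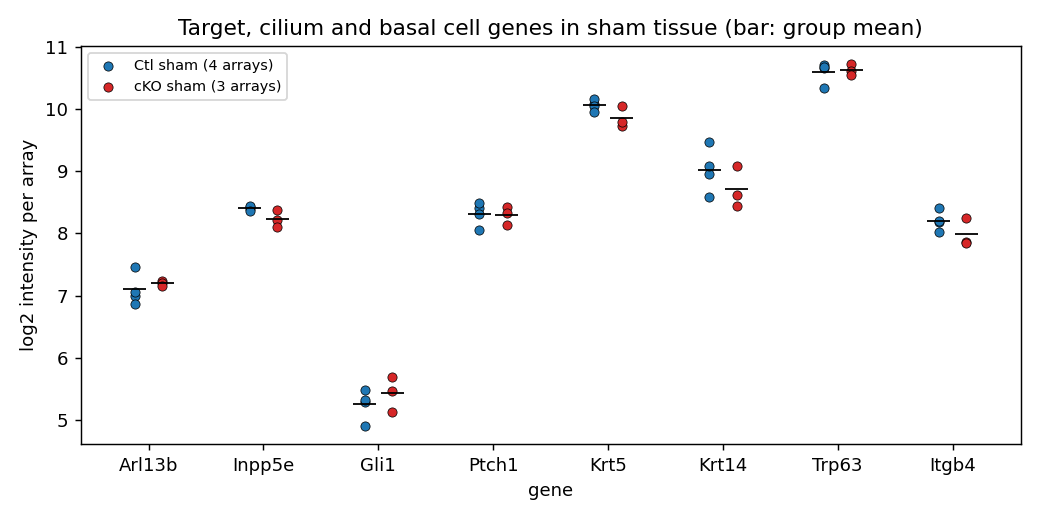
log2 intensity per array for Arl13b, its ciliary partner Inpp5e, 2 hedgehog targets and 4 basal cell genes in the 4 Ctl (blue) and 3 cKO (red) sham arrays, with bars at the group means. The groups overlap for all 8 genes, and Arl13b is no lower in cKO than in Ctl.

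The largest differences included several genes of secreted epididymal proteins. The 15 genes at least 2-fold lower in cKO sham tissue without overlap comprised 5 beta-defensins (Defb22, Defb26, Defb38, Defb40 and Defb43), 2 Pate genes (Pate1 and Pate3), Ly6f, Cwh43, Cyp4a12a, Glb1l3, Odam, Npy and 2 predicted genes. Beta-defensins are small cationic antimicrobial peptides, several of which coat sperm in the epididymis, and Pate and Ly6 proteins share the three-finger fold. None passed the threshold in the model of all 14 arrays (adjusted p = 0.999 for each, limma). These genes were selected by their sham values, so their size there is a description. The upstream sequences of Defb22 and Pate3, the pair of genes with the greatest differences, are shown 5′ to 3′ (RefSeq, GRCm38.p6, the 250 bases before the annotated start, minus strand, at chr2:152490139-152490388 and chr9:35648204-35648453). Capitals mark a TATAAA match, which in Pate3 begins 44 bases before the start.

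Defb22: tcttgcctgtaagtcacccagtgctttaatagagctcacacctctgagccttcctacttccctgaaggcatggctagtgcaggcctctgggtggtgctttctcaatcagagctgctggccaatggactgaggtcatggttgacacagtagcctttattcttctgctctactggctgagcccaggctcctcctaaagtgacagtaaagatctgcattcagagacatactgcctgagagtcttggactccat

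Pate3: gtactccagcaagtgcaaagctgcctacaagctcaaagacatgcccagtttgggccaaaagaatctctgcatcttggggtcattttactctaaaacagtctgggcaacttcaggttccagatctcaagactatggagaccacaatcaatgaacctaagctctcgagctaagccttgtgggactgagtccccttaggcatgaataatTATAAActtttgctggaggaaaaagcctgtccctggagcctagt

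Of the 13 named genes 11 had a promoter in the RefSeq table, in windows of 300 bases. The letters TATAAA, searched on both strands, occurred in 3 of the 11 (Ly6f, Pate1 and Pate3) against 13.6% of all 32851 promoters. AGAACA, an androgen receptor half-site that was likewise searched on both strands and can share at most 1 end base with TATAAA, occurred in 4 of the 11 (Cwh43, Defb26, Defb43 and Glb1l3) against 19% of all promoters. These counts describe the windows only.

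Defb22, the mouse counterpart of a defensin of the sperm surface coat, read 6.61, 8.46 and 6.09 in the cKO sham arrays and 10.65, 10.58, 11.20 and 10.87 in the Ctl sham arrays. The cKO arrays were all more than 2 log2 units below the lowest Ctl array, with replicate 3 the least low (difference -3.77 ± 1.07, 13.7-fold). Pate3 read 5.80, 5.49 and 5.64 against 9.09, 7.87, 9.43 and 9.64. Here the 3 cKO arrays lay close together just above background, and the Ctl arrays ran higher with replicate 3 the lowest (-3.36 ± 0.90, 10.3-fold). Defb38 read 6.48, 7.45 and 6.29 against 9.94, 9.13, 10.23 and 10.12 (-3.12 ± 0.76, 8.66-fold). Pate1 read 3.77, 4.86 and 3.76 against 6.90, 6.28, 7.85 and 7.72, so that the cKO arrays were below background and the fold is at least 3.67. For Pate1 the Ctl replicate 3 was the lowest control and the cKO replicate 3 the highest knockout array.

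Defb26 read 5.50, 7.38 and 5.65 in cKO and 8.88, 8.94, 9.72 and 8.90 in Ctl sham tissue (-2.93 ± 0.59, 7.64-fold). Cwh43, related to the yeast protein that remodels the lipid of GPI anchors, read 5.19, 6.99 and 4.79 against 8.33, 8.32, 9.10 and 8.55 (-2.92 ± 0.75, 7.54-fold). The cKO replicate 3 was the least low for both. Cyp4a12a, an omega-hydroxylase of fatty acids that is male-biased in mouse kidney, read 3.95, 5.68 and 4.24 against 6.75, 6.45, 7.64 and 7.33, at least 3.31-fold. Ly6f, of the GPI-anchored Ly6 family, read 5.93, 6.76 and 6.20 against 7.98, 7.66, 8.50 and 8.33 (-1.82 ± 0.35, 3.53-fold) and had the smallest unadjusted p of the 15 (0.000117). The others were smaller in size: Glb1l3, a beta-galactosidase-like gene, differed by -1.60 ± 0.49, Odam, a secreted protein first known from ameloblasts, by -1.57 ± 0.44, and Npy, neuropeptide Y, by -1.47 ± 0.50. Defb43 differed by -1.31 ± 0.49, and Defb40, which was below background in cKO, by at least 1.40-fold. In the deposited series matrix, whose normalization is not stated, all 13 log2 differences were larger in size, from -6.08 for Defb22 to -1.75 for Defb43, and more than 1.5 times as large for Defb22, Defb40, Glb1l3, Odam and Npy.

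**Figure D3:**
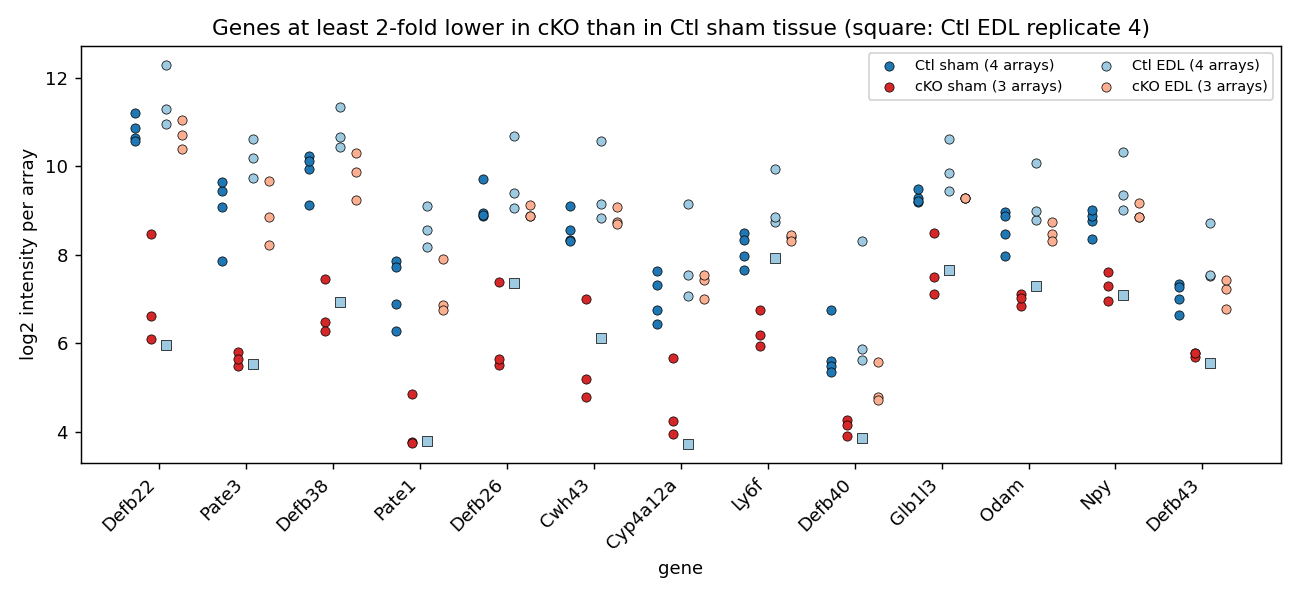
log2 intensity per array of the 13 named genes at least 2-fold lower in cKO sham tissue without overlap, for Ctl sham (dark blue), cKO sham (red), Ctl EDL (light blue) and cKO EDL (light red) arrays; the square is Ctl EDL replicate 4. The red points lie below the dark blue ones throughout, the light red ones mostly within or near the Ctl sham range, and the square near the red points for most genes.

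The ligated sides, which did not enter the selection, showed how these genes varied elsewhere. On the EDL side of the same cKO mice the median of the 15 genes, relative to the Ctl sham mean, was -0.02, 0.34 and -0.28, against -2.62, -1.58 and -2.80 on the sham side. All 15 genes were higher on the EDL side than on the sham side in each of the 3 cKO mice, by a median of 2.81, 1.70 and 2.12, a difference that shares the sham values by which the genes were chosen. The Ctl mice did not move as one: the median EDL-minus-sham difference was 0.66, 2.21, -2.89 and 0.21 in replicates 2 to 5. In Ctl EDL replicate 4, 14 of the 15 genes lay below every Ctl sham array, where 25.6% of all genes did so in that array. In the other Ctl EDL arrays 0 of the 15 did, against 23.3% to 29.3% of all genes. A control array thus held low values like those of the cKO sham arrays: Defb22 at 5.95, Pate3 at 5.53 and Defb38 at 6.94. Etv5, a transcription factor whose level depends on luminal factors from the testis, read 7.46 in that array and 7.31 to 7.50 in the other Ctl EDL arrays, against 11.92 to 12.13 in Ctl sham tissue, as its EDL label says.

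**Figure D4:**
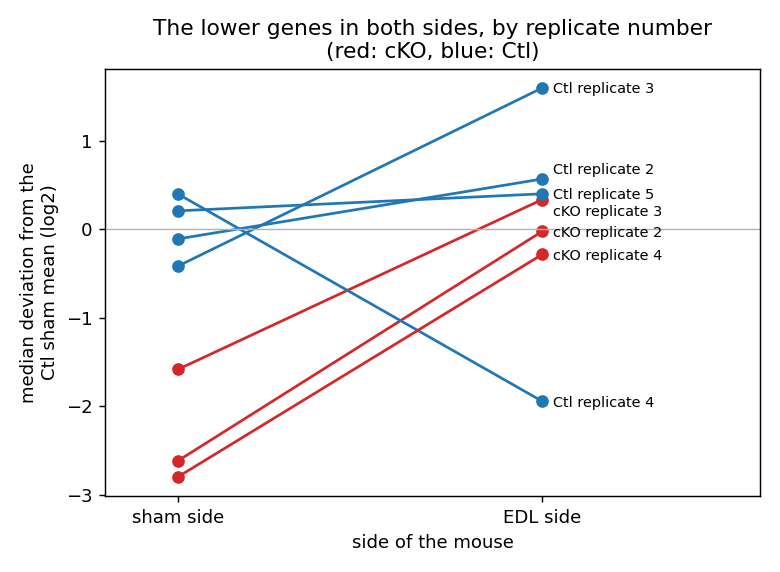
Median over the 15 lower genes of the deviation from the Ctl sham mean (log2) on the sham and EDL sides, joined by genotype and replicate number (3 cKO in red, 4 Ctl in blue). The cKO lines run from -2.80 to -1.58 on the sham side up to near 0, and the line of Ctl replicate 4 runs the opposite way, to -1.94.

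Because all 4 groups share 1 estimate of the spread, the Ctl EDL replicate 4 also entered the error of the sham comparison. Without it 4 genes passed, all lower in cKO (limma): Defb22, Pate3 and Defb38 at an adjusted p of 0.00964 each, and Pate1 at 0.0236. Over all alternatives the adjusted p ran from 0.00964 to 1 for Defb22 and from 0.0236 to 1 for Pate1. With only the 7 sham arrays, which that array does not touch, 0 genes passed, the 4 genes lying at 0.147, 0.113, 0.113 and 0.156, and 0 passed with both arrays of Ctl mouse 4 left out. With any 1 array or mouse left out the difference ran from -4.48 to -3.29 for Defb22 and from -3.74 to -3.15 for Pate3. Its direction could not turn, since these genes were chosen for sham arrays that do not overlap.

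Markers of neighbouring duct cells varied within narrow ranges across the same arrays. The initial segment list lay between -0.08 and 0.10 and the caput secretion list between -0.06 and 0.08 of the Ctl mean in all 7 sham arrays. The caput list was slightly higher in each cKO array than in any Ctl array, the highest of which lay at 0.05. The clear cell list ran from -0.10 to 0.18, highest in cKO replicate 2.

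Within their families the lower genes were a minority. Of 41 beta-defensins 22 were higher and 19 lower (median 0.00), and 6 lay below Ctl without overlap, where 2.08% of all genes did. Among 12 Pate genes 6 were higher and 6 lower, but only 7 of the 12 lay above background. Pate10, which was below background on the EDL side, differed by 0.27 ± 0.12 without overlap, opposite in sign to Pate3. Of 31 Ly6 and related genes, 23 of them above background, 4 were lower without overlap, Ly6f by the most. Wfdc16, a small protein with a whey acidic protein core, read 9.05, 9.63 and 9.45 against 10.11, 10.01, 10.44 and 10.31 (-0.84 ± 0.21), yet the median of the 18 Wfdc genes was -0.03. Cyp4a12b, the paralog of Cyp4a12a, was below background on average in cKO and at least 1.39-fold lower there, and the near-identical pair may share signal on the array.

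At a 1.5-fold limit 26 genes were lower without overlap (0.119% of those tested) and 1 predicted gene was higher (0.00456%). The cKO EDL arrays held 6, 2 and 7 of the 26 below every Ctl sham array, and Ctl EDL replicate 4 held 21, where 25.7%, 25.3% and 24.8% of all genes lay so low in the cKO EDL arrays and 25.6% in Ctl EDL replicate 4. Among smaller differences were a pair of retinoid genes. Crabp2, a retinoic acid carrier, read 6.27, 6.33 and 6.31 against 6.78, 6.90, 6.95 and 6.78 (-0.55 ± 0.12), and Rdh7, a retinol dehydrogenase, read 6.30, 6.34 and 6.68 against 6.79, 6.80, 7.12 and 7.12 (-0.52 ± 0.11). For Crabp2 the arrays of each group lay close together, while for Rdh7 the spread within each group was wider than the gap between the groups. Their unadjusted p were 0.000388 and 0.000453. Rnase11, of the RNase A family, differed by -0.33 ± 0.11, and Myc, a proliferation-linked transcription factor, by -0.50 ± 0.21.

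A further 5 genes were at least 2-fold lower on average but overlapped, and in 2 of them the low cKO arrays were low on both sides. Itgae, the integrin chain of lymphocytes and dendritic cells that lie within epithelia, read 5.37, 5.71 and 7.10 in the cKO and 7.66, 7.0, 7.28 and 7.49 in the Ctl sham arrays. The cKO replicates 2 and 3 were low on the EDL side too (5.65 and 5.88), while the cKO replicate 4 was at the Ctl level on both (7.20 after EDL). The Itgae difference on the EDL side was -1.01 ± 0.40 (unadjusted p = 0.0226, limma). Slc25a21, a mitochondrial carrier of oxodicarboxylates, read 8.97, 7.64 and 3.82 against 8.69, 7.83, 7.80 and 8.81. Only the cKO replicate 4 was low, on the EDL side as well (5.23), and without its sham array the difference of -1.47 ± 0.94 became 0.02. Serpina16, Abcb5 and Bsph2 differed by -1.19 ± 0.50, -1.02 ± 0.49 and -1.05 ± 0.56, each with overlapping arrays. These 5 genes were named after their values were seen.

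On the higher side the differences were small. Of the 618 genes above Ctl without overlap (2.82% of all), no named gene reached 1.5-fold. Abca12, a lipid transporter of keratinising epithelium, read 5.48, 5.42 and 5.61 against 4.77, 5.08, 4.98 and 5.11, with the Ctl arrays below background (0.52 ± 0.10, at least 1.14-fold, unadjusted p = 0.000101, the smallest of all genes). Mcm3ap, a scaffold of nuclear mRNA export, read 7.91, 7.72 and 7.80 against 7.15, 7.54, 7.26 and 7.42 (0.47 ± 0.09), and on the EDL side it was also higher in cKO, at 7.81, 7.80 and 7.81 against 7.38, 7.43, 7.27 and 7.43. Rab27b, a GTPase of regulated secretion, read 9.01, 9.07 and 8.92 against 8.35, 8.43, 8.82 and 8.51 (0.47 ± 0.15). Cdk5r1, the activator of Cdk5, was higher by 0.38 ± 0.09 and Bcl2a1a, an inhibitor of apoptosis, by 0.40 ± 0.12. Ncmap, a myelin protein, was higher by 0.44 ± 0.16 and Myl6b, a myosin light chain, by 0.42 ± 0.13. For 3 further genes the Ctl mean was below background: Wdr66, a protein of sperm flagella and motile cilia, was at least 1.38-fold higher in cKO, Foxr1, a forkhead factor, at least 1.18-fold and Strip2, a striatin-interacting protein, at least 1.2-fold.

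Caput secretion genes, initial segment markers, lipocalins and cystatins leaned slightly upward. Other secretory families did not: 22 of 41 beta-defensins, 4 of 12 RNase A genes and 7 of 18 Wfdc genes were higher, with medians of 0.00, -0.03 and -0.03. Of 17 caput secretion genes 15 were higher, 5 of them without overlap (2.82% of all genes were), with a median of 0.07 that was 0.05 without the Ctl replicate 3. Gpx5, the secreted glutathione peroxidase that is a main protein of the caput, differed by 0.10 ± 0.06, and Adam7, a sperm-binding metalloprotease relative, by 0.09 ± 0.07. Ovch2, a secreted protease needed in the mouse caput for sperm function, differed by 0.14 ± 0.10. Among initial segment markers 13 of 18 were higher (median 0.06), Cst8, an epididymal cystatin, by 0.23 ± 0.13. The other 5 were lower, and the largest difference of the list was a fall, Rnase11 at -0.33. Without overlap 3 of the 18 lay above Ctl and 1 below. Lipocalins (8 of 10 higher, median 0.05) and cystatins (7 of 10 higher, median 0.14) leaned the same way, with medians of 0.02 to 0.05 and 0.09 to 0.19 when an array was left out. Both families share members with the caput and initial segment lists, so they are not separate from them. In each family 7 of the 10 genes lay above background. Cldn10, a tight junction claudin, read 9.43, 9.39 and 9.27 against 9.13, 9.05, 9.11 and 9.15 (0.25 ± 0.12). The Ctl replicate 3 was the lowest or near the lowest array for several of these, the caput list lying at 0.05, -0.06, 0.01 and 0.00 in the Ctl arrays and at 0.08, 0.07 and 0.07 in the cKO arrays.

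Stromal, vascular and macrophage genes were lower on average in cKO sham tissue, by amounts that depended on single arrays. All 17 fibroblast and matrix genes were below Ctl (median -0.24), among them Fn1, fibronectin, at -0.65 ± 0.41, Col3a1, a fibrillar collagen, at -0.60 ± 0.53, and Lox, a collagen cross-linking enzyme, at -0.56 ± 0.40. By array the list lay at -0.87, 0.13 and 0.07 in cKO and at -0.09, 0.37, 0.11 and -0.42 in Ctl. Only the cKO replicate 2 was below every control array, and without it the median was 0.11 and the Col3a1 difference 0.26. The median was -0.08 without the Ctl replicate 3 and -0.42 without the cKO replicate 4. Of 12 endothelial genes 10 were lower (median -0.25), including the receptor Kdr (-0.46 ± 0.18) and the transcription factor Erg (-0.41 ± 0.16), and the median was -0.03 without the cKO replicate 2 and -0.42 without the cKO replicate 4. Mesothelial genes (6 of 7 lower, median -0.37) stood at -0.10 without the cKO replicate 2 and at -0.09 without the Ctl replicate 2, the highest array of that list at 0.75. Smooth muscle genes (8 of 11 lower, median -0.11) stood at 0.04 without the cKO replicate 2, at 0.03 without the Ctl replicate 3 and at -0.02 without the Ctl replicate 4, and between -0.26 and -0.14 without any one of the others.

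Of 17 macrophage and monocyte genes 16 were lower (median -0.32). C1qb, a complement subunit made by resident macrophages, read 8.18, 8.60 and 8.60 against 8.92, 9.28, 8.99 and 8.43 (-0.45 ± 0.17), and Fcer1g, the shared Fc receptor chain, differed by -0.54 ± 0.29. Cd68, a lysosomal macrophage protein, was the exception at 0.19 ± 0.11. By array the list lay at -0.65, 0.12 and -0.31 in cKO and -0.01, 0.23, 0.13 and -0.44 in Ctl. The groups overlapped, and the median was -0.05 without the cKO replicate 2, -0.18 without the Ctl replicate 3 and -0.52 without the cKO replicate 3. Red-lineage genes were lower in 6 of 8: Alas2, the erythroid enzyme of haem synthesis, read 6.08, 6.06 and 6.26 against 6.45, 6.46, 6.51 and 6.56, and Hba-a1, a globin chain, read 8.84, 10.47 and 10.61 against a Ctl mean of 10.81 ± 0.19 (SD, n = 4). Only the cKO replicate 2 was far below the others in Hba-a1. Of 26 proliferation genes 24 were lower (median -0.15), but here the Ctl replicate 3 stood high at 0.75 and without it the median was 0.10, against -0.03 without the cKO replicate 2 and -0.26 to -0.19 without any one of the others.

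**Figure D5:**
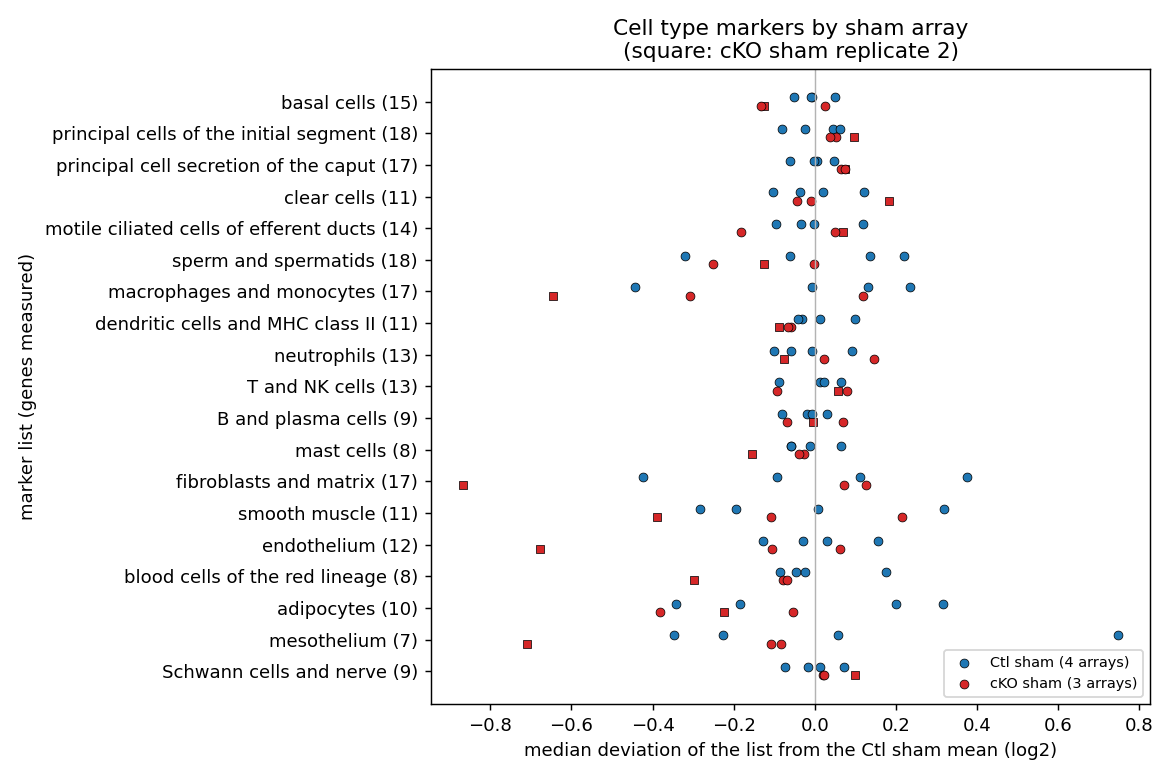
Median deviation from the Ctl sham mean (log2, horizontal) of the 19 cell type marker lists in each of the 4 Ctl (blue) and 3 cKO (red) sham arrays, with the number of genes measured; the square is cKO sham replicate 2. The epithelial lists cluster near 0, whereas fibroblast, endothelial, macrophage and mesothelial lists are lowest in the square, at -0.87 for fibroblasts.

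The cKO replicate 2 was low both in the stromal lists and in the 15 epididymal genes (-2.62). The cKO replicate 4, whose 15 genes were the lowest (-2.80), had fibroblast and endothelial lists at 0.07 and 0.06, and without the replicate 2, 18 genes met the 2-fold limit without overlap. Without the cKO replicate 3, the least low for many of the 15, 32 genes met it (31 lower and 1 higher). The part of stromal content in these differences was not tested.

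Whether the genotype difference itself depended on surgery was tested as an interaction in the same model. No gene passed (0%, smallest limma adjusted p = 0.427), with 469 genes higher (2.14%) and 430 lower (1.96%) at an unadjusted p under 0.05. The genotype comparison on the EDL side likewise gave 0 genes (0%), with 720 higher (3.28%) and 613 lower (2.80%) unadjusted. For Defb22 the interaction was 4.36 ± 1.51 (adjusted p = 0.985, limma), for Cwh43 3.08 ± 1.06 (0.985) and for Ly6f 1.35 ± 0.49 (0.985), each with the Ctl EDL replicate 4 in the EDL mean and sharing the sham values that selected the genes. At 0.34 log2 to either side for a gene of median error, the interval of the interaction was wider than that of the sham comparison.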

How the data were processed

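The deposited log2 intensities came as a table in 2 parts (22206 probe sets), per the file headers, and the authors' roles for RMA, Affymetrix Expression Console and Partek 7.0, which the submitters' processing notes name, are not given in the sources used here. The authors also deposited a p-value and a ratio per probe set for the sham comparison, used only for counts. The ratios matched the log2 values. Of its columns, 14 with array values were not used. The deposited series matrix, log2 values of unstated normalization, was an alternative. Symbols were updated by RefSeq accession (20456 matched). The probe set with the highest mean represented a gene, and no filter was applied.

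A limma model held a mean for each of the 4 groups over 14 arrays, with 10 residual and 4.16 prior degrees of freedom. Tests were two-sided, adjusted by Benjamini-Hochberg over 21929 genes, with a threshold of 0.05. Errors are moderated standard errors with n = 3 and 4. The design text gives each mouse a sham and an EDL side, so replicates were taken as separate mice. Simulated data had 200 of 21929 genes changed, under independent normal noise. In this comparison 96% of 2-fold and 100% of 4-fold changes were recovered with no wrong sign, with 8 and 13 false calls. These shares do not carry over to genes of larger error or to data with fewer changed genes. The median standard error in the sham comparison was 0.11, against 0.35 for Ly6f and 1.07 for Defb22. Both missed the threshold, at 3.53-fold and 13.7-fold.

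Genes were named by rule: the 15 largest non-overlapping differences and the 5 smallest p in each direction, 6 fixed genes, and up to 3 per list by p, with predicted genes and genes below background in both groups left out. Not every gene so named is described. The 51 lists (19 cell types, 18 pathways, 14 families) and the comparison were chosen with earlier results of these data known. Lists are described by counts and medians, and no gene of any list passed the threshold. The work used R 4.3.3, limma 3.58.1, Python 3.11.15, pandas 2.3.3, numpy 2.4.6 and matplotlib 3.10.9.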

Additional observations from a re-analysis of the deposited data

Results flagged for a closer look

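Of 128 sets of 4 arrays examined (64 genes in the Ctl sham and Ctl EDL groups), 6 held a value that stood apart from the others by Dixon's criterion. Chance alone meets it in about 1 of 20 sets, so this number is no more than chance gives. In Ctl sham replicate 3, Trp63 read 10.33 and Serpina16 9.80, both below the other Ctl sham arrays, and Myc read 8.36, above them. In Ctl sham replicate 4, Defb26 read 9.72, above the others. In Ctl EDL replicate 3, Wfdc16 read 11.20 and Abcb5 10.06, both above the other Ctl EDL arrays. Of these, 3 fall in Ctl sham replicate 3, the array at the upper end of the first principal component.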

How the results depend on the processing

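The count of 0 genes in the sham comparison held with a second quantile normalization, array median centring, trended or robust variances, array weights, only the sham arrays, every probe set or the mean per symbol, removal of dim genes, the series matrix, the authors' p-values, and an adjusted p under 0.10. Unadjusted, 800 genes were under 0.05, and 899 for the interaction. With 1 array or mouse left out the count ran from 0 to 4, with 4 only without Ctl EDL replicate 4. With the replicate number as a block it was 0, and with mouse as a random replicate block it was 0 too. Same-numbered cKO and Ctl sham arrays correlated at 0.08, 0.25 and 0.07, and the other pairs ran from -0.31 to 0.32. With so few pairs this does not settle whether same-numbered arrays share more than a number. The interaction was likewise at 0 wherever an adjusted p was computed for it, which was not possible with only the sham arrays or the authors' p-values. The count of 15 genes at least 2-fold apart without overlap was 14 with dim genes removed, 28 in the series matrix (1 higher, 27 lower) and 27 at a 1.5-fold limit, and 15 to 32 with an array left out. Of 64 genes followed through up to 33 alternatives, 60 kept their sign. Many of the 64 were chosen for sham arrays that do not overlap, so leaving out an array could not turn their sign. In the series matrix 30 of the 64 had a difference more than 1.5 times as large. The exceptions in sign lay near 0 or rested on 1 array. Ptch1 was 0.0057 with the replicate block by number, 0.0064 after median centring, 0.0014 in the series matrix and -0.102 to 0.063 with an array or mouse left out. In the same leave-outs Trp63 ran from -0.056 to 0.072, Col3a1 from -1.19 to 0.26 and Slc25a21 from -2.55 to 0.020. The causes were not tested. The number of arrays limits the precision: the 95% interval of a typical gene reached 0.24 log2 either way.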

Other observations

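Other groups outside the comparisons showed small differences. Of 21 interferon-stimulated genes 18 were lower in cKO sham tissue (median -0.12, 0 past the threshold in limma), and the median was -0.01 without Ctl sham replicate 3 and -0.03 without cKO sham replicate 4. Sperm and spermatid genes were lower in 16 of 18 (median -0.12), with the cKO arrays at -0.12, 0.00 and -0.25 inside the Ctl range of -0.32 to 0.22. With an array left out that median ran from -0.25 without Ctl sham replicate 4 to -0.03 without Ctl sham replicate 2. Adipocyte genes had a median of -0.23 (8 of 10 lower), which was -0.13 without cKO sham replicate 3, -0.14 without Ctl sham replicate 3 and -0.15 without Ctl sham replicate 4. Acute phase and antimicrobial genes had one of -0.12, which became 0.05 without cKO sham replicate 2, -0.42 without cKO sham replicate 3, -0.25 without Ctl sham replicate 5 and -0.06 without Ctl sham replicate 2. Cholesterol synthesis, ER stress, tight junction and immediate early genes had medians of 0.02, 0.03, 0.01 and 0.00, close to the median of all genes.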
